A study of Mus musculus with 6 samples.

Results

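The genes described here are 9 components of cyclic GMP (cGMP) signalling, taken by name from the 16300 genes measured by RNA-seq in cultured mouse granulosa cells (GCs). They are the peptide ligand gene *Nppc*, the natriuretic peptide receptor genes *Npr2* and *Npr3*, the soluble guanylate cyclase subunit genes *Gucy1a1* and *Gucy1b1*, the kinase genes *Prkg1* and *Prkg2*, and the phosphodiesterase genes *Pde5a* and *Pde3a*. All 9 named genes were measured, and all 9 had a mean of at least 10 normalized counts, the minimum for testing. GCs of wild type C57BL/6J mice aged 8 to 9 weeks were collected at estrus, pooled from 5 mice per library, cultured for 48 h with serum and kept without serum for 4 h. They then received media alone (control, 3 libraries) or 25 nM dihydrotestosterone (DHT, 3 libraries) for 24 h. DHT is an androgen that is not converted to estrogen. The question of the comparison was which transcripts of GCs differ after exposure to an androgen. The labels name whole ovary as the extracted material, and their treatment text names DHT for each sample, so the groups follow the label that gives control or DHT per sample.

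cGMP is a second messenger made from GTP by guanylate cyclases. In the ovarian follicle, C-type natriuretic peptide from mural GCs binds the receptor guanylate cyclase NPR2 on cumulus cells, and the cGMP formed there passes through gap junctions into the oocyte. There it inhibits the phosphodiesterase PDE3A, which keeps cyclic AMP high and holds the oocyte in meiotic arrest. Nitric oxide drives a separate source of cGMP, the soluble guanylate cyclase, an enzyme made of an alpha and a beta subunit.

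Sequences upstream of 3 members are shown because the 2 subunit genes of soluble guanylate cyclase gave different results although they are neighbours, and because *Nppc* was lower in each DHT library than in each control library. *Gucy1a1* lies at chr3:82092427-82145789 and *Gucy1b1* at chr3:82032006-82074689 of GRCm38, both on the minus strand. The gap between them is 17737 bases and holds 0 other annotated genes. *Nppc* lies at chr1:86666291-86670571 on the minus strand. The sequences are those of RefSeq for GRCm38.p6, read 5′ to 3′ on the minus strand. They cover chr1:86670574-86670823 for *Nppc*, chr3:82145790-82145900 for *Gucy1a1* and chr3:82074712-82074961 for *Gucy1b1*. Capitals mark the letters of 3 motifs on either strand: the androgen response half-site (TGTTCT or AGAACA), the GC box (GGGCGG or CCGCCC) and the TATA box (TATAAA or TTTATA).
Nppc: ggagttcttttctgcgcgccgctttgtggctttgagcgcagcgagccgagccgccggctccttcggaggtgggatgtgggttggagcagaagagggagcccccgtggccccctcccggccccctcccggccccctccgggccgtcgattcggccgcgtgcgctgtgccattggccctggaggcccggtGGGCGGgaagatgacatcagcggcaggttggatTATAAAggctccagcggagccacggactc
Gucy1a1: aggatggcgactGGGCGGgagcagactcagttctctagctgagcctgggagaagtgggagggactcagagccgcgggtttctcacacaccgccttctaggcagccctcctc
Gucy1b1: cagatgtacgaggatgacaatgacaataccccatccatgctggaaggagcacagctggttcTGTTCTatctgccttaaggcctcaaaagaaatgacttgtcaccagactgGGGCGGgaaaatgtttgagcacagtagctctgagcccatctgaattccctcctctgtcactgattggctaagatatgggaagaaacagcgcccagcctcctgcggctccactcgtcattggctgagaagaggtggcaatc
The stretch of *Gucy1a1* is shorter because the rest of its window lies within the annotated gene. The *Gucy1b1* window of 250 bases before the start holds a half-site 189 bases before the start and a GC box 140 bases before it. Neither of the 2 RefSeq windows of *Gucy1a1* holds the half-site, and 1 holds a GC box 238 bases before its start. The *Nppc* window holds a GC box 62 bases and a TATA box 29 bases before the start. Its GC content of 69.2% and its 24 CpG dinucleotides stand beside medians of 52.4% and 6 over 32851 windows of that length. RefSeq windows were matched for 7 of the 9 members (9 windows), and the half-site was found for *Gucy1b1* and *Npr3*. The half-site is present in 16.1% of all windows, the GC box in 32.7% and the TATA box in 12.4%. A match describes the letters of the window and is not evidence of a binding site.

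The values deposited for each library are normalized counts, the reads of a gene divided by the size factor of the library. The reads on genes ranged from 36111177 to 41928585 per library. Of 16292 genes tested with limma on log2(normalized count + 1), 1823 (11.2%) passed an adjusted p of at most 0.05, 760 lower in DHT-treated GCs (4.66%) and 1063 higher (6.52%). The number that passed was 970 without DHT replicate 2, 931 without DHT replicate 3 and 804 without the intensity trend. With the added requirement of an absolute log2 fold change above 1, 213 genes (1.31%) passed, 138 without DHT replicate 3 and 131 with a minimum mean of 50. By the study's methods, each of the 3 libraries of a group is a separate pool of animals, so the p-values measure the spread between pools and not between single mice. Of the granulosa cell markers, 9 of 10 listed were measured, with summed normalized counts of 201222 to 217592 in control and 215045 to 235096 in DHT libraries. Of these, 2 rose and 2 fell, and *Cyp19a1* was not analysed here. Of the measured markers of theca cells (3 of 5 listed, without *Cyp17a1* and *Insl3*), endothelial cells (4 of 7), stromal fibroblasts (5 of 5) and surface epithelium (5 of 5), 0 rose and 0 fell, and of 4 immune cell markers 1 fell. The summed normalized counts of the theca cell markers did not overlap, at 2472 to 2796 in control and 2211 to 2340 in DHT libraries, and those of the other 4 lists overlapped. The theca sum was nearly all *Ptch1*, and the 2 other measured markers, *Hsd3b6* and *Tcf21*, overlapped between the groups. The part of theca cells in the members' values was not tested.

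One member passed the test. *Gucy1a1* fell to 0.496 of the control level in DHT-treated GCs, and 0 members rose. The number that passed was 0 without the trend or with the replicate block, 2 without DHT replicate 1 and 3 without control replicate 3, and without control replicate 2 the member that passed was *Npr3*. The 1 member called of 9 stands beside 11.2% of all tested genes called in either direction and 4.66% called lower in DHT. With the fold requirement added, 0 of 9 passed, beside 1.31% of all tested genes in either direction, 0.399% lower and 0.908% higher. In 8 of 9 members the log2 fold change was below 0, against 51.2% of all tested genes. The median log2 fold change was -0.31 over the members and -0.01 over all genes. The members were chosen with earlier results of these data known, so these tallies only describe the list. In *Nppc*, *Gucy1a1* and *Prkg1* each DHT library lay below each control library, a pattern found in 14.7% of all tested genes. The reverse pattern was found in 0 members and in 15.9% of all tested genes, and groups without overlap in either direction in 30.6%. The plot of normalized counts by library shows all 9 members.

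**Figure D1:**
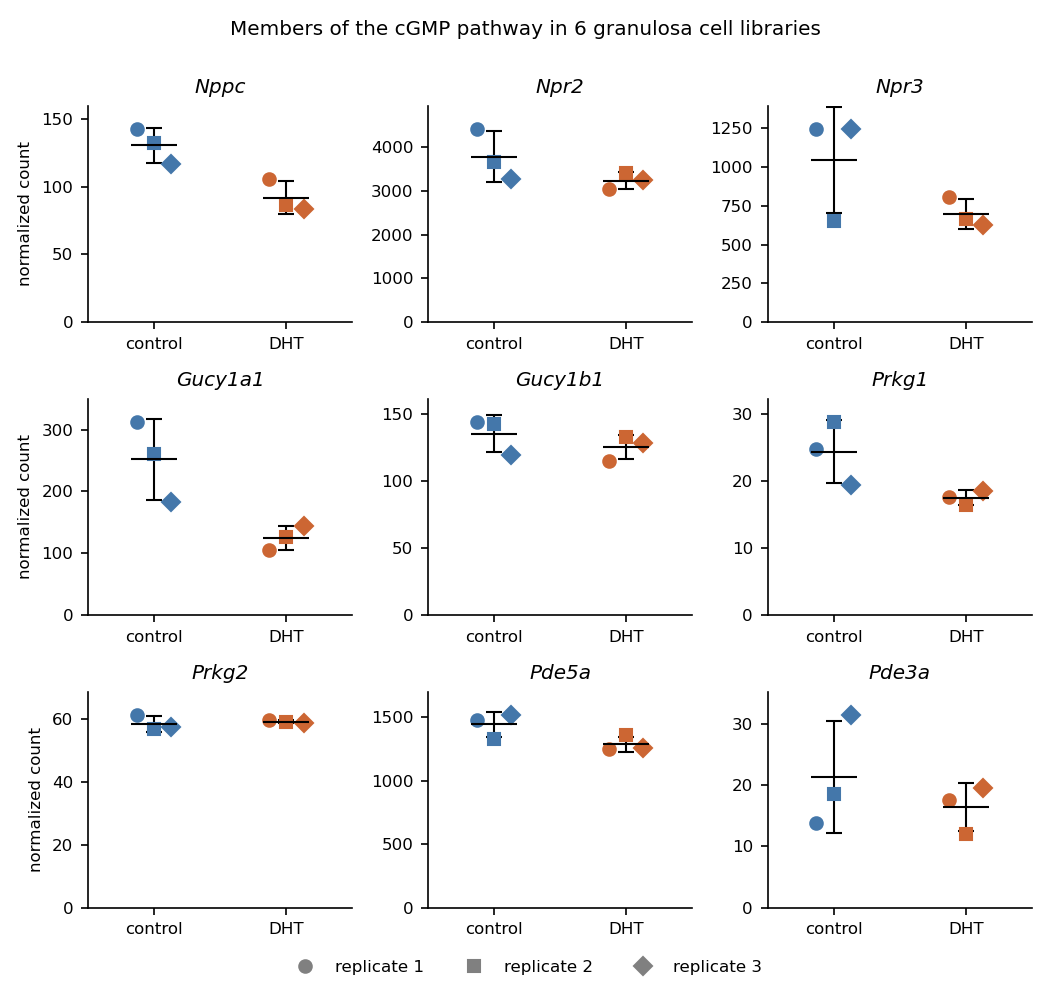
Normalized counts (vertical axis, from 0) of the 9 members in 3 control and 3 DHT libraries, with 1 symbol per library and the mean ± SD as lines. The groups stand apart in *Nppc*, *Gucy1a1* and *Prkg1* and overlap in the other members.

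The levels of the members were compared with each other as RPKM (reads per kilobase of exon, scaled to the counted reads of the library). *Npr2* was the most abundant, at 21.1 ± 3.48 RPKM in control GCs (SD, n = 3), above 84.9% of the measured genes. *Pde5a* (3.81 ± 0.253 RPKM), *Nppc* (3.26 ± 0.355) and *Npr3* (2.90 ± 0.950) followed, and the control ranges of neighbours in this order overlapped. *Gucy1a1* (0.941 ± 0.253 RPKM) and *Gucy1b1* (0.899 ± 0.101) also overlapped in control GCs. *Prkg2* was at 0.283 ± 0.014 RPKM, below both subunit genes and above the last 2 members in each control library. *Prkg1* (0.058 ± 0.012 RPKM) and *Pde3a* (0.043 ± 0.018) were the lowest and overlapped, and 1.40% and 0.695% of the measured genes were below them. In DHT-treated GCs the order was the same except that *Gucy1b1* (0.815 ± 0.054 RPKM) stood above *Gucy1a1* (0.457 ± 0.068) with no overlap between them.

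**Figure D2:**
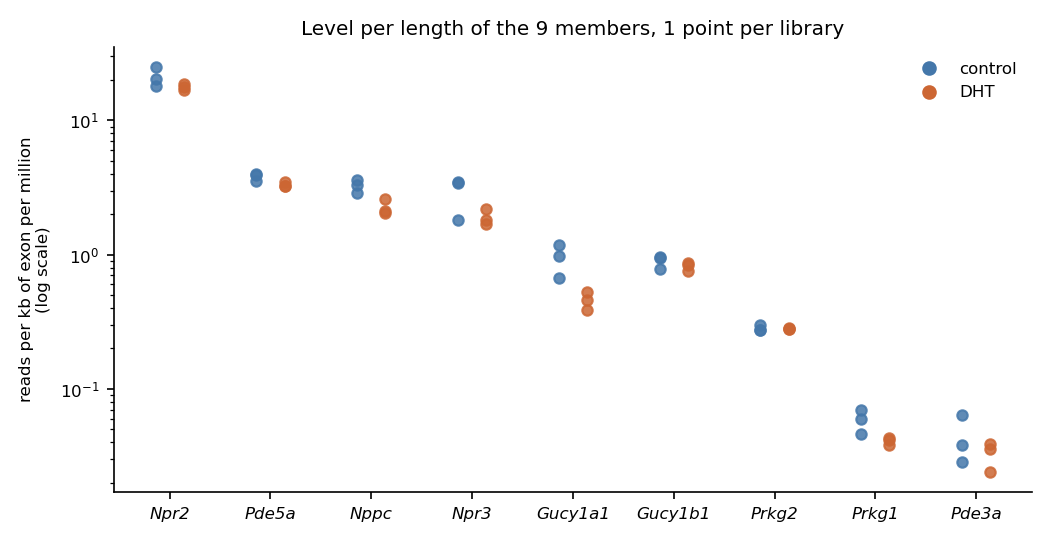
Level of each member in RPKM (vertical axis, log scale), 1 point per library, control in blue and DHT in orange, ordered by the control mean. *Npr2* stands above 16.7 RPKM in all 6 libraries and *Prkg1* and *Pde3a* below 0.07, and *Gucy1a1* crosses from the level of *Gucy1b1* to below it.

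*Nppc* (ENSMUSG00000026241), the gene of C-type natriuretic peptide, had 142.5, 132.0 and 116.7 normalized counts in control replicates 1, 2 and 3. It had 105.7, 86.2 and 83.8 in DHT replicates 1, 2 and 3. All 3 DHT libraries were below the lowest control library. The ratio of the means was 0.705, and the log2 fold change was -0.50 (SE 0.146, 95% confidence interval -0.83 to -0.17). The gene did not pass the limma test (adjusted p = 0.059), and an exact two-sided permutation test gave p = 0.1, the smallest that 3 libraries against 3 allow. The limma adjusted p was 0.045 without control replicate 3 and 0.049 without DHT replicate 1, and it stayed above 0.05 when each of the other 4 libraries was left out. In bulk libraries, fewer cells that express a gene and less RNA of it per cell cannot be told apart.

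*Npr2* (ENSMUSG00000028469, chr4:43631935-43651244, plus strand) encodes the guanylate cyclase receptor of that peptide. It had 4421, 3658 and 3268 normalized counts in the control libraries and 3038, 3416 and 3263 in the DHT libraries. Control replicate 1 was the highest library, and the groups overlapped. The log2 fold change was -0.21 (SE 0.097, 95% confidence interval -0.43 to 0.0044, limma adjusted p = 0.21). With each library left out it ranged from -0.31 without control replicate 3, where the gene passed the limma test (adjusted p = 0.033), to -0.096 without control replicate 1 (adjusted p = 0.45).

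*Npr3* (ENSMUSG00000022206, chr15:11839896-11907287, minus strand) encodes the clearance receptor, which takes up natriuretic peptides and has no cyclase domain. It had 1247, 652.4 and 1246 normalized counts in the control libraries and 804.4, 665.4 and 624.7 in the DHT libraries. Control replicates 1 and 3 lay above all DHT libraries, while control replicate 2 lay among them. The log2 fold change was -0.53 (SE 0.225, 95% confidence interval -1.04 to -0.02), and the limma test was not passed (adjusted p = 0.18). Without control replicate 2 the log2 fold change was -0.84 and the limma adjusted p was 0.0028, while without control replicate 1 or 3 it was -0.38 (limma adjusted p = 0.40 and 0.33). The ratio of *Npr2* to *Npr3* per length ranged from 5.28 to 11.3 in control and from 7.60 to 10.5 in DHT libraries.

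*Gucy1a1* (ENSMUSG00000033910) encodes the alpha 1 subunit of soluble guanylate cyclase, the nitric oxide receptor. Its normalized counts were 312.7, 260.2 and 182.5 in the control libraries and 104.7, 126.5 and 143.7 in the DHT libraries. The highest DHT library was below the lowest control library. The mean fell from 251.8 ± 65.5 to 125.0 ± 19.5 (SD, n = 3 each), with a log2 fold change of -0.98 (SE 0.198, 95% confidence interval -1.43 to -0.53, adjusted p = 0.014 by limma). The exact two-sided permutation p was 0.1, the smallest possible. With each library left out in turn, the log2 fold change ranged from -1.20 to -0.81, and the call was lost without control replicate 2 (limma adjusted p = 0.052). The call was also lost without the intensity trend (limma adjusted p = 0.079) and when the replicate number entered as a block (limma adjusted p = 0.054).

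*Gucy1b1* (ENSMUSG00000028005), the gene of the beta 1 subunit that pairs with alpha 1, had 144.5, 143.1 and 119.5 normalized counts in control and 115.5, 133.1 and 128.4 in DHT libraries. The groups overlapped. The log2 fold change was -0.11 (SE 0.129, 95% confidence interval -0.40 to 0.18, limma adjusted p = 0.66). The ratio of *Gucy1a1* to *Gucy1b1* per length was 1.22, 1.02 and 0.861 in the control libraries and 0.511, 0.536 and 0.630 in the DHT libraries. The control and DHT ratios did not overlap, with means of 1.04 ± 0.180 and 0.559 ± 0.063 (SD, n = 3) and an exact two-sided permutation p of 0.1. The difference in the log2 ratio was -0.88 and ranged from -1.01 to -0.75 with each library left out. The ratio of *Prkg2* to *Prkg1* per length also stood apart, at 4.99 ± 0.996 in control and 6.85 ± 0.428 in DHT libraries. The ratios of *Npr2* to *Npr3*, *Nppc* and *Npr1*, and of *Pde5a* to *Pde3a*, overlapped between the groups. *Gucy1a2*, the gene of the alternative alpha 2 subunit, had 30.7 to 51.5 normalized counts in control and 33.8 to 48.9 in DHT libraries (limma adjusted p = 0.96).

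The 5 tested genes with the profile most like that of *Gucy1a1* over the 6 libraries were *Gm16062*, *Dok2*, *Mmp24*, *Me2* and *Prr5l*. Their root mean square difference from it, on the log2 scale after centring each gene, was 0.118, 0.127, 0.127, 0.130 and 0.137. The median over all tested genes was 0.568. The 5 genes were picked for the smallest differences, so a place below that median follows from the choice. *Me2* and *Prr5l* passed the limma test (adjusted p = 0.021 and 0.016), and *Gm16062*, *Dok2* and *Mmp24* did not (0.055, 0.074 and 0.085). Among the members the nearest profiles were those of *Prkg1* (0.337, rank 307 of 16291) and *Nppc* (0.364, rank 426). *Gucy1b1* ranked 1875 with a difference of 0.470. The measure describes 6 libraries that differ in treatment.

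Soluble guanylate cyclase and the kinase *Prkg1* are also known from vascular smooth muscle. Of 9 measured markers of vascular smooth muscle cells and pericytes, 5 rose and 0 fell, and their summed normalized counts were 9842 to 14961 in control and 16675 to 18199 in DHT libraries. None of the 9 was at 0 in any library, and *Acta2* and *Mcam* were the most abundant by normalized count in control GCs. The 5 markers that rose moved in the opposite direction to *Gucy1a1*, and their part in the result was not tested.

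**Figure D3:**
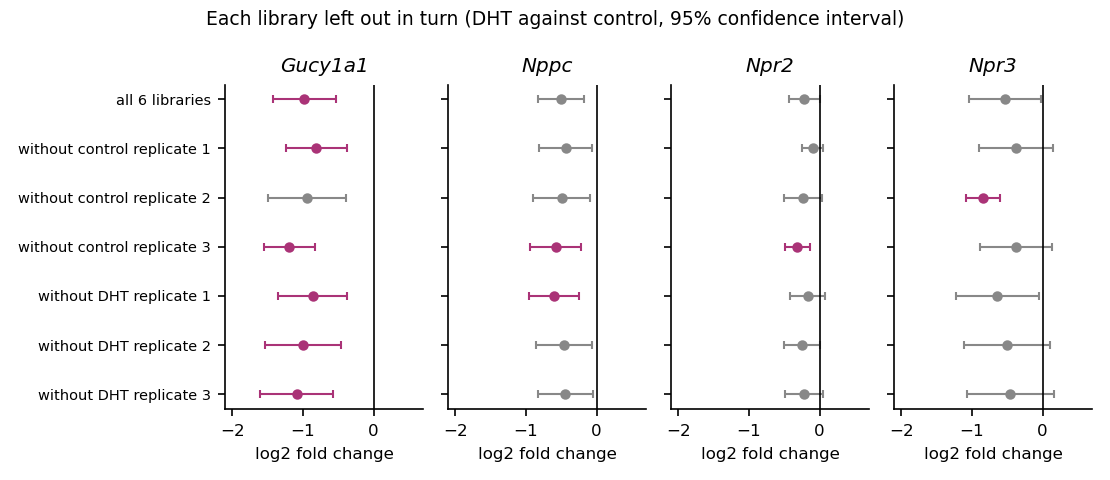
Log2 fold change (horizontal axis, DHT against control) with its 95% confidence interval for 4 members, with all 6 libraries and with each library left out. Purple marks an adjusted p of at most 0.05. *Gucy1a1* stays between -1.20 and -0.81, and the call of *Npr3* appears only without control replicate 2.

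The kinase *Prkg1* (ENSMUSG00000052920, chr19:30564489-31765033, minus strand) had 24.7, 28.8 and 19.5 normalized counts in control and 17.6, 16.4 and 18.5 in DHT libraries. The groups did not overlap, but the gap between the lowest control and the highest DHT library was smaller than the SD of the control libraries, 4.69 normalized counts. The log2 fold change was -0.44 (SE 0.249, 95% confidence interval -1.0 to 0.13, limma adjusted p = 0.32). *Prkg2* (ENSMUSG00000029334, chr5:98929773-99037351, minus strand), the gene of the membrane-bound form of the kinase, had 56.7 to 61.3 normalized counts in control and 58.8 to 59.7 in DHT libraries. Its log2 fold change was 0.02 (95% confidence interval -0.32 to 0.36, limma adjusted p = 0.96). The DHT libraries of *Prkg2* lay within the control range.

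*Pde5a* (ENSMUSG00000053965, chr3:122728947-122859374, plus strand), which encodes a phosphodiesterase specific for cGMP, had 1474, 1330 and 1517 normalized counts in control libraries. It had 1245, 1355 and 1253 in DHT libraries. Control replicate 2 and DHT replicate 2 overlapped. The log2 fold change was -0.16 (SE 0.062, 95% confidence interval -0.30 to -0.03, limma adjusted p = 0.13), and the gene did not pass with any library left out.

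*Pde3a* (ENSMUSG00000041741, chr6:141249269-141507448, plus strand) encodes the phosphodiesterase that breaks down cyclic AMP in the oocyte and is inhibited by cGMP. It had 13.9, 18.6 and 31.5 normalized counts in control and 17.6, 12.0 and 19.6 in DHT libraries. Control replicate 3 was the highest library, and the groups overlapped. The log2 fold change was -0.31 (SE 0.349, 95% confidence interval -1.10 to 0.48, limma adjusted p = 0.64), and without control replicate 3 it was 0.0020. All 8 oocyte markers were measured, with summed normalized counts of 388.4 to 927.1 in control and 168.0 to 708.5 in DHT libraries. *Zp3* and *Oosp1* were at 0 in DHT replicate 2, which had the lowest sum and the lowest *Pde3a*. Control replicate 1 had the highest sum and the second lowest *Pde3a*, and control replicate 3 had the highest *Pde3a* with a sum of 426.1. The part of oocyte RNA in the *Pde3a* values was not tested.

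Among 8 measured phosphodiesterases with a catalytic domain that hydrolyses cGMP, *Pde5a* held the largest share of the summed level per length in each library. Its share was 52.9%, 48.5% and 51.3% in control and 43.1%, 46.0% and 43.2% in DHT libraries. The share of *Pde11a* was 2.41%, 4.16% and 4.91% in control and 9.15% to 11.1% in DHT libraries. Both shares stood apart between the groups, *Pde5a* lower and *Pde11a* higher in DHT, as did that of *Pde1b*, higher in DHT. The mean share of *Pde1b*, whose enzyme is activated by calcium and calmodulin, was 16.1 ± 1.09% in control and 19.1 ± 0.559% in DHT libraries. *Pde3a* held 0.576 ± 0.224% and 0.435 ± 0.108%. The shares of a library add to a fixed sum, so they are not independent of each other.

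**Figure D4:**
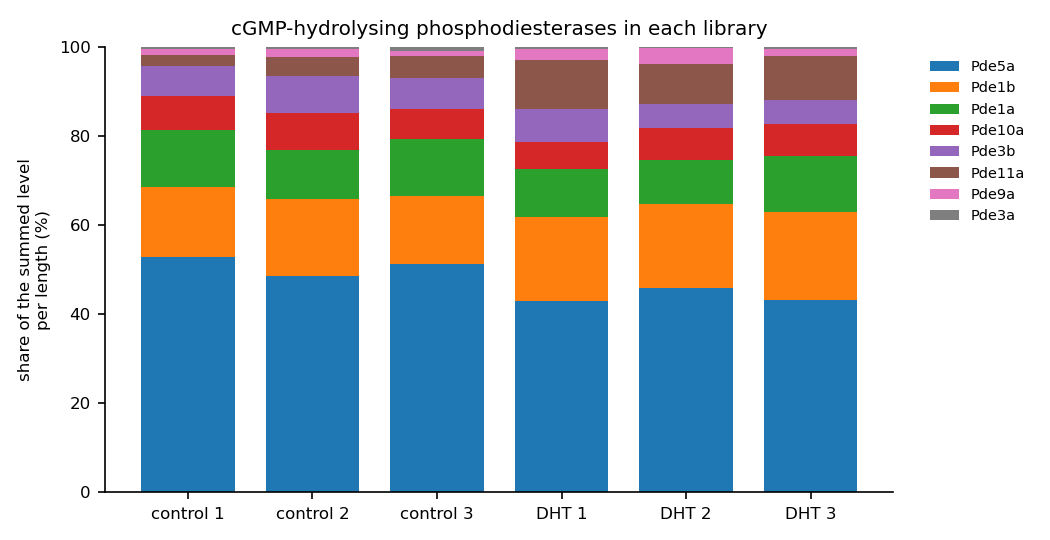
Share (%) of each of 8 phosphodiesterases in their summed level per length, 1 bar per library. *Pde5a* takes 48.5% to 52.9% in control and 43.1% to 46.0% in DHT libraries, and *Pde11a* 2.41% to 4.91% and 9.15% to 11.1%.

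Of 49 other genes of the cGMP pathway listed by role, 30 were measured and 19 were not analysed here. Of the 30, 7 rose, 2 fell and 21 did not pass the limma test, beside 6.52% of all tested genes that rose and 4.66% that fell. Without the trend 4 of the 30 rose and 1 fell, with the replicate block 5 and 2, and under quantile normalization 8 and 2. The median log2 fold change of the 30 was 0.05. On the supply side, *Nos2*, the inducible nitric oxide synthase, rose from 426.4, 649.6 and 516.0 normalized counts in the control libraries to 1068, 1028 and 1144 in the DHT libraries. Its log2 fold change was 1.04 (SE 0.130, adjusted p = 0.0013 by limma), and all 3 DHT libraries lay above all control libraries. *Impdh1*, an enzyme of guanine nucleotide synthesis, rose with a log2 fold change of 0.21 (limma adjusted p = 0.0082), a call lost without the trend (0.060) and with the replicate block (0.054). The most abundant gene of its role, *Impdh2*, had a log2 fold change of 0.11 (limma adjusted p = 0.14).

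Among the genes of peptide ligands and their breakdown, *Mme*, the gene of neprilysin, which cleaves natriuretic peptides, rose from 701.9 ± 47.4 to 1312 ± 68.6 normalized counts (SD, n = 3). Its log2 fold change was 0.90 (limma adjusted p = 9.6e-05). *Ide*, the gene of insulin-degrading enzyme and the most abundant of this role at 83.0 RPKM in control GCs, had a log2 fold change of 0.16 (limma adjusted p = 0.19). *Nppb*, the gene of B-type natriuretic peptide, had 14.8 to 22.3 normalized counts in control and 7.64 to 12.0 in DHT libraries (log2 fold change -0.79, limma adjusted p = 0.14). *Npr1*, the gene of the receptor for the A-type and B-type peptides, had 328.0 to 381.9 and 255.4 to 337.4 (log2 fold change -0.22, limma adjusted p = 0.27). The ratio of *Npr2* to *Npr1* per length was 11.1 ± 1.01 in control and 11.2 ± 1.16 in DHT libraries (SD, n = 3), and the groups overlapped.

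Among the genes of cGMP breakdown and export, *Pde11a*, the gene of a phosphodiesterase of both cyclic nucleotides, rose. It had 35.6, 60.4 and 76.9 normalized counts in control and 169.3, 142.9 and 153.4 in DHT libraries, with a log2 fold change of 1.48 (SE 0.252, adjusted p = 0.0062 by limma, and 0.053 without the trend). The DHT libraries all lay above the highest control library. *Pde1b* did not pass (log2 fold change 0.29, limma adjusted p = 0.051), but it did with a minimum mean of 50 (0.042), under quantile normalization (0.040) and without the trend (0.040). *Pde6d*, a prenyl-binding subunit with no catalytic activity and the most abundant gene of its role per length, had a log2 fold change of 0.01 (limma adjusted p = 0.94). The cyclic nucleotide exporters *Abcc4* and *Abcc5* both fell, with log2 fold changes of -0.37 and -0.29 (limma adjusted p = 0.011 and 0.0039), and without the trend the call of *Abcc4* was lost (0.081). *Abcc5* went from 5955 ± 245.4 to 4877 ± 196.3 normalized counts (SD, n = 3).

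Among the targets of cGMP and of its kinases, the channel gene *Cnga1* rose, its normalized counts going from 87.2 ± 8.08 to 150.6 ± 21.3 (SD, n = 3). Its log2 fold change was 0.78 (limma adjusted p = 0.0097). *Kcnma1*, the pore subunit of a potassium channel, rose with a log2 fold change of 0.48 (limma adjusted p = 0.0074, and 0.054 without the trend). *Vasp*, an actin regulator and the most abundant per length of the listed kinase substrates, rose with a log2 fold change of 0.16 (limma adjusted p = 0.023). The call of *Vasp* was lost without control replicate 1 or 2 or DHT replicate 2 or 3, with limma adjusted p-values of 0.060 to 0.096, and also without the trend (0.090) and with the replicate block (0.094). *Gja1*, the gene of the main gap junction protein of GCs, was the most abundant listed gene at 180.9 RPKM in control GCs. Its log2 fold change was 0.06 (95% confidence interval -0.06 to 0.18, limma adjusted p = 0.51) and turned to -0.13 under quantile normalization.

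**Figure D5:**
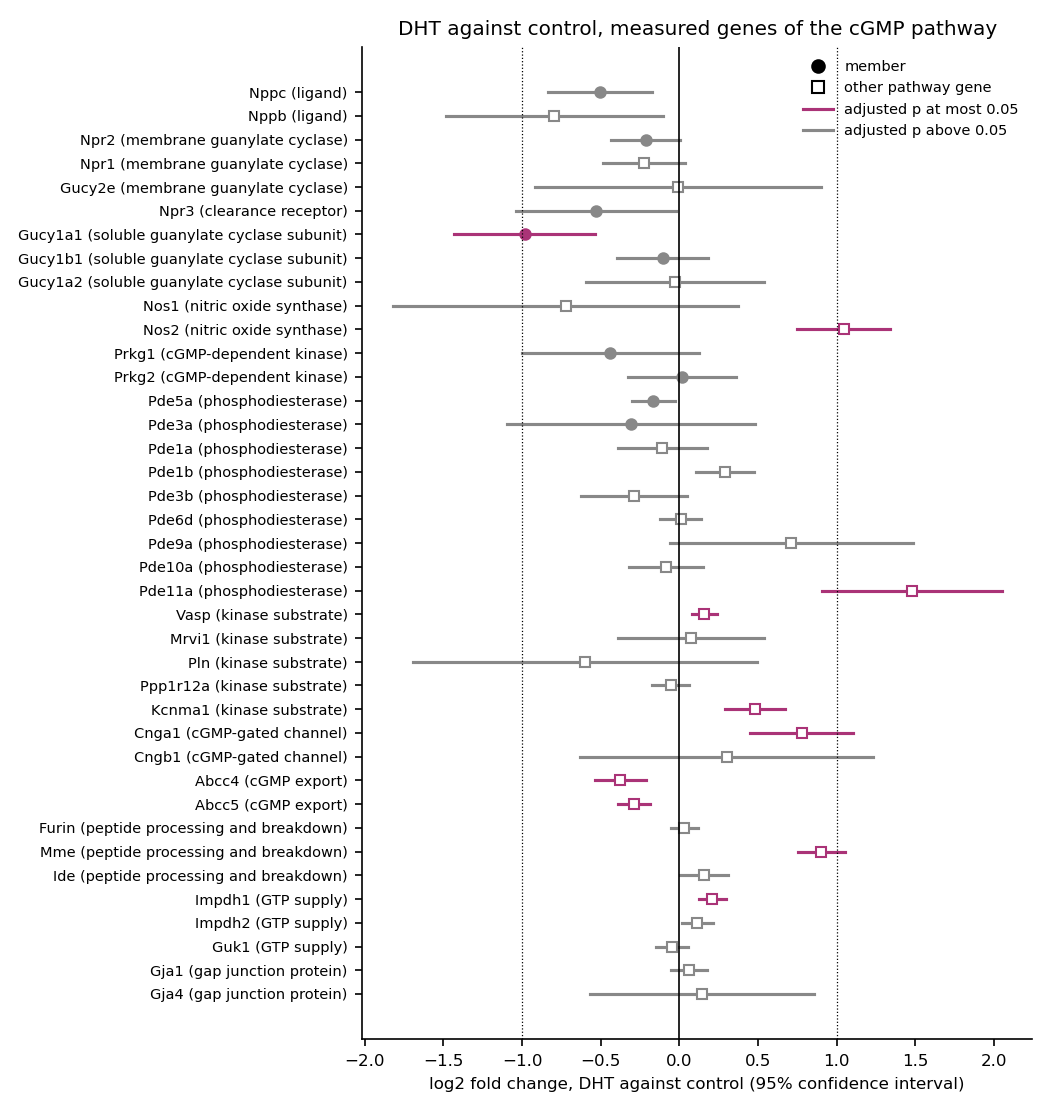
Log2 fold change (horizontal axis, DHT against control) with 95% confidence intervals for the 9 members (filled circles) and the 30 other measured genes of the pathway (open squares), ordered by role. Purple marks genes that passed the limma test, and the dotted lines stand at -1 and 1. Among the members the call is that of *Gucy1a1*, and among the other genes 7 calls lie above 0 and 2 below.

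Exons of some members overlap annotated genes on the other strand, and the strand setting of the counting is not given in the sources used here. The overlap was 266 bases for *Npr2* with *Gm12473*, 321 for *Npr3* with *Gm5144*, 55 for *Pde5a* with *4930447N08Rik* and 741 for *Pde3a* with *Gm28523*. Without strand, reads of these stretches cannot be assigned to 1 gene of the pair. The other members had no such overlap, and *Gucy1a1* shares 1 exonic base with *Mir7010* on its own strand.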

How the data were processed

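RNA was extracted from 6 samples of cultured GCs, and libraries were made with the NEBNext Ultra kit and sequenced as paired reads of 150 bases. Per the submitters' processing notes, reads were trimmed with Trimmomatic 0.36 and mapped to GRCm38 with STAR 2.5.2b, and exonic reads were counted with featureCounts of Subread 1.5.2. The authors deposited a signal per gene and library, the read count divided by the DESeq2 size factor. In each library, 100% of these values were whole multiples of a common step, within 0.01 of a read, which gave the reads per library. They ranged from 36111177 to 41928585, and the number of libraries, 3 per group, limits the precision. The deposited fold changes, p-values and adjusted p-values were not used, nor was a second deposited table of part of the genes.

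Genes whose mean signal over the 6 libraries reached 10 were tested. Their signal, with a pseudocount of 1, was taken to the log2 scale and fitted in R 4.3.3 by limma 3.58.1 (empirical Bayes with a mean-variance trend), and p-values were adjusted by Benjamini-Hochberg over all tested genes. The fold changes are on this scale, which understates those of low genes. The 95% confidence intervals are not adjusted for the number of genes. The test was also run on simulated counts whose set changes were larger than those of the members, so that run does not cover changes of their size. RPKM values used merged exon lengths of GENCODE M21, and exact permutation tests used scipy 1.17.1. Groups came from the treatment label. The members, the pathway list, the marker lists and the rule for named genes (all members, pathway genes that passed or were the most abundant of their role, and the 5 profiles nearest to *Gucy1a1*) were chosen with earlier results of these data known. Genes named outside the rule, *Gucy1a2*, *Nppb*, *Npr1*, *Pde1b*, *Acta2*, *Mcam*, *Zp3*, *Oosp1*, *Ptch1*, *Hsd3b6*, *Tcf21* and *Pde10a*, were chosen after their values were seen. The alternatives were pseudocounts of 0.5 and 8, no filter, a minimum mean of 50, quantile normalization, TMM scaling, no trend, the replicate number as a block, and each library left out in turn.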

Additional observations from a re-analysis of the deposited data

How the results depend on the processing

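*Gucy1a1* kept its direction under all 14 alternatives and passed under 11. The genes that passed numbered 804 without the trend and 990 with the replicate block, and 931 to 2094 with each library left out. With the fold requirement added they numbered 131 with a minimum mean of 50, and 138 to 286 with each library left out. The members that passed numbered 0 without the trend, 0 with the replicate block, and 1 to 3 with each library left out (0 to 1 with the fold requirement). Of the other pathway genes, 4 rose and 1 fell without the trend, and 6 to 7 rose and 2 to 2 fell with each library left out. The samples share replicate numbers, but same-numbered libraries did not deviate together (correlations of 0.0058, 0.067 and -0.24), so the numbers were not taken as pairs. Without the trend the calls of *Pde11a*, *Kcnma1*, *Impdh1*, *Abcc4* and *Vasp* were lost, with limma adjusted p-values of 0.053 to 0.090, and *Pde1b* was gained (0.040). The replicate block also ended the calls of *Vasp* (adjusted p = 0.094 by limma) and *Impdh1* (0.054). The direction turned for *Gja1* (-0.13) under quantile normalization. With each library left out, the log2 fold change ranged across 0 for *Prkg2* (-0.0057 to 0.050), *Pde3a* (-0.56 to 0.0020), *Gucy1a2* (-0.21 to 0.16), *Pde6d* (-0.040 to 0.051) and *Pde10a* (-0.14 to 0.0057). The cause of these changes was not tested. In no scaling did the median of all genes move by more than 0.1 on the log2 scale. The planned edgeR and DESeq2 tests on reads recovered from the signal were not run. *Prkg1* and *Pde3a* have the lowest normalized counts, and so the least depth, among the members.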
